A study of Mus musculus with 2 samples.

Results

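Homeobox and Pax genes were examined in neural progenitor cells (NPCs) and neurons sorted from the embryonic mouse cortex, with the question of which of them were transcribed and which lay silent in this tissue. The set was chosen by gene symbol. It takes every listed gene whose symbol consists of 1 of 26 family roots (Alx, Barhl, Dbx, En, Evx, Gbx, Gsx, Hoxa to Hoxd, Irx, Isl, Lmx1, Meis, Msx, Nkx, Otx, Pax, Pbx, Phox2, Pitx, Tshz, Vax, Zfhx and the root of Six4) and a number or letter, with Pax6 left out. This gave 115 of the 20373 genes in the tables. A member was called silent where the deposited value was at most 3 units in each library and expressed otherwise, and 81 members were silent and 34 expressed. This division uses the expression values themselves, so it is a description and carries no test.

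Homeobox genes encode transcription factors that bind DNA through a homeodomain, a fold of helices of which 1 lies in the major groove. Pax proteins bind DNA through a paired domain, and some of them carry a homeodomain as well. Many of these genes fix position in the embryo: the clustered Hox genes along the hindbrain, spinal cord and trunk, En and Gbx genes around the border of midbrain and hindbrain, Nkx2-1 and Gsx2 in the ventral telencephalon. The TALE homeodomain proteins of the Meis and Pbx families instead serve as partners of many other homeodomain proteins. Where such a regulator is not in use, its CpG-rich promoter is often held by Polycomb complexes, and in stem cells many carry the bivalent combination of H3K27 and H3K4 methylation to which the series relates its transcriptomes.

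Cortices came from embryos at embryonic day 15.5 out of crosses of heterozygous Nestin-GFP with homozygous DCX-mRFP mice, and embryos positive for both reporters were used. Nestin is an intermediate filament gene of progenitors and DCX the doublecortin gene of young neurons. Sorting by fluorescence took green cells for the NPC library and cells of both colours for the neuron library, so both groups carry both transgenes and share tissue and age, and no treatment is named. There was 1 library of each population, with 26346226 reads on listed genes for NPCs and 23312054 for neurons. How many embryos were pooled is not given in the sources used here. With 1 library per group no difference has a replicate check and none carries a p-value, and the intervals beside ratios are exact 95% counting intervals (Clopper-Pearson), which cover counting error only. Levels are in CPM, counts per 1000000 on a scale common to both libraries, on which 1 CPM is 27 NPC or 23 neuron reads. In bulk RNA, fewer cells of a type and less RNA per cell cannot be told apart. The 12 NPC markers examined summed to 4377 CPM in NPCs and 1477 in neurons, and the 11 neuronal markers found to 6407 and 10168, so that neuronal transcripts were plentiful in the NPC library as well. The tables pair values with symbols only. The processing notes name mm9, and the promoter coordinates below are those of RefSeq on GRCm38.p6.

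The promoters of 4 silent and 4 expressed members show the sequence feature on which the silent and the expressed genes were compared, the density of CpG dinucleotides. Each window runs from 250 bases before to 50 bases after the annotated start, 5′ to 3′ on the strand of the gene, with every CpG in capitals. The silent ones are those with the most reads in their families among genes with a single window, and the expressed ones have the largest difference between libraries in theirs, or, for Meis, the most reads. The families themselves were chosen by hand. Gsx1 and Gsx2, and Six6 and Six5, are relatives on opposite sides of the limit. The first 4 are silent.
Nkx2-2: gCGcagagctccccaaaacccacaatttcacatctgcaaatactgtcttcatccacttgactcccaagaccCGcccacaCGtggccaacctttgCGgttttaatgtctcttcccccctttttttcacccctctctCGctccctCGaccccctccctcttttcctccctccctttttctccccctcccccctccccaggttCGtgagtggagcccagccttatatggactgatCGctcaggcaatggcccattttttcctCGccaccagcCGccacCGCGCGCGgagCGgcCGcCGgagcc
Six6: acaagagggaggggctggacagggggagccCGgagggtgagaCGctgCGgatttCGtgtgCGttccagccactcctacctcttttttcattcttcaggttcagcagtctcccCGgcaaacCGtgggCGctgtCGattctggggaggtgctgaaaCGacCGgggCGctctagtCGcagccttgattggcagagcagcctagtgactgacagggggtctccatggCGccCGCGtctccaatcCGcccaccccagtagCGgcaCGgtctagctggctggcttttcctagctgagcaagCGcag
Gsx1: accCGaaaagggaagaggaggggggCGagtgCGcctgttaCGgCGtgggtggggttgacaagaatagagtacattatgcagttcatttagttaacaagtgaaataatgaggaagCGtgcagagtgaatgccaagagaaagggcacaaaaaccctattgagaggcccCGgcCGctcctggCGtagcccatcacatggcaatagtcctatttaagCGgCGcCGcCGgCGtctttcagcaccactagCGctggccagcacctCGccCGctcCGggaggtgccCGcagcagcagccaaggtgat
Hoxb1: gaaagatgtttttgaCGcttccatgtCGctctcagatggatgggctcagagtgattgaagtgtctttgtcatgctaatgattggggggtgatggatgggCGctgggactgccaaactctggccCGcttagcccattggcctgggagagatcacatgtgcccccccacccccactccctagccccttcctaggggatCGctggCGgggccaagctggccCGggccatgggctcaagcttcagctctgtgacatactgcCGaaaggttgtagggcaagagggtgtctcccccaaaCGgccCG
The next 4 are expressed.
Six5: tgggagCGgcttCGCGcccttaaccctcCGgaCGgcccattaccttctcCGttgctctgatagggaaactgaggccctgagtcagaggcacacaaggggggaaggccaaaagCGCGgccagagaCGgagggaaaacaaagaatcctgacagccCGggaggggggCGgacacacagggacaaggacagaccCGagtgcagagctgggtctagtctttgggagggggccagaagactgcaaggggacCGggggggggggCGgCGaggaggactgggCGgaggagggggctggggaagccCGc
Tshz3: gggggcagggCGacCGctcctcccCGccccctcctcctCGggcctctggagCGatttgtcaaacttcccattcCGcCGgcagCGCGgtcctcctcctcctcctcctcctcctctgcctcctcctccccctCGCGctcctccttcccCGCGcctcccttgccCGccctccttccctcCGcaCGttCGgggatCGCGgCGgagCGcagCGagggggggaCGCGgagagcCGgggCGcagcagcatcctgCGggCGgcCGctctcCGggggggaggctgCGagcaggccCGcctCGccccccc
Gsx2: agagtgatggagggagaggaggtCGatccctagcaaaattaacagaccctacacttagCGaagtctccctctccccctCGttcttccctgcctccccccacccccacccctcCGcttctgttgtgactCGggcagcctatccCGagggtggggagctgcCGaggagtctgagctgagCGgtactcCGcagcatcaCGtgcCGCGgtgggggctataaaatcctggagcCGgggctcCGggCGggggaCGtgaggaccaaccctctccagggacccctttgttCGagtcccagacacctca
Meis2: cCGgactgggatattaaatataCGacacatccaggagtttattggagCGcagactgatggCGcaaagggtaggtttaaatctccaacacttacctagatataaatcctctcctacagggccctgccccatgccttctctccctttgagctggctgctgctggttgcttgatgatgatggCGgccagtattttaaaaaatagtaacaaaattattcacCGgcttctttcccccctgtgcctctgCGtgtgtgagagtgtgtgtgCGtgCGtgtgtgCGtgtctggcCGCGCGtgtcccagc
In GRCm38.p6 the silent windows are Nkx2-2 at chr2:147186353-147186652 (minus strand, 17 CpG), Six6 at chr12:72939632-72939931 (plus strand, 20 CpG), Gsx1 at chr5:147188446-147188745 (plus strand, 19 CpG) and Hoxb1 at chr11:96365508-96365807 (plus strand, 10 CpG). The expressed windows are Six5 at chr7:19094294-19094593 (plus strand, 17 CpG), Tshz3 at chr7:36697868-36698167 (plus strand, 33 CpG), Gsx2 at chr5:75075351-75075650 (plus strand, 17 CpG) and Meis2 at chr2:116064570-116064869 (minus strand, 13 CpG). The silent windows of Nkx2-2, Six6 and Gsx1 hold as many CpG as the expressed windows of Six5 and Gsx2 or more. The expressed window of Tshz3 has the most and the silent window of Hoxb1 the fewest.

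Most members were silent. Of the 115 members, 81 (70.4%) were silent, where 27.9% of all listed genes met the same limit, and 61 (53.0%) had 0 reads in both libraries, against 20.9% of all listed genes. The limit falls between neighbouring read counts. Just inside it stood Nkx2-2 (3 reads in NPCs, 1 in neurons), Alx1 and Irx1 (3 and 0 each), and just outside it Isl2 (1 and 3), Irx3 (4 and 0) and Barhl1 (1 and 4). All 81 silent members together held 23 NPC reads and 13 neuron reads. At most 1 read in a library was found for 13 of them, at most 2 for another 4 and 3 reads for 3. A count of 0 allows up to 3 reads, which is 0.111 CPM for NPCs and 0.132 CPM for neurons, and no difference between the libraries was detectable below these levels. A further 15 members lay above the limit but under 1 CPM in both libraries. Only 19 members (16.5%) reached 1 CPM in a library, against 62.3% of all listed genes.

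**Figure D1:**
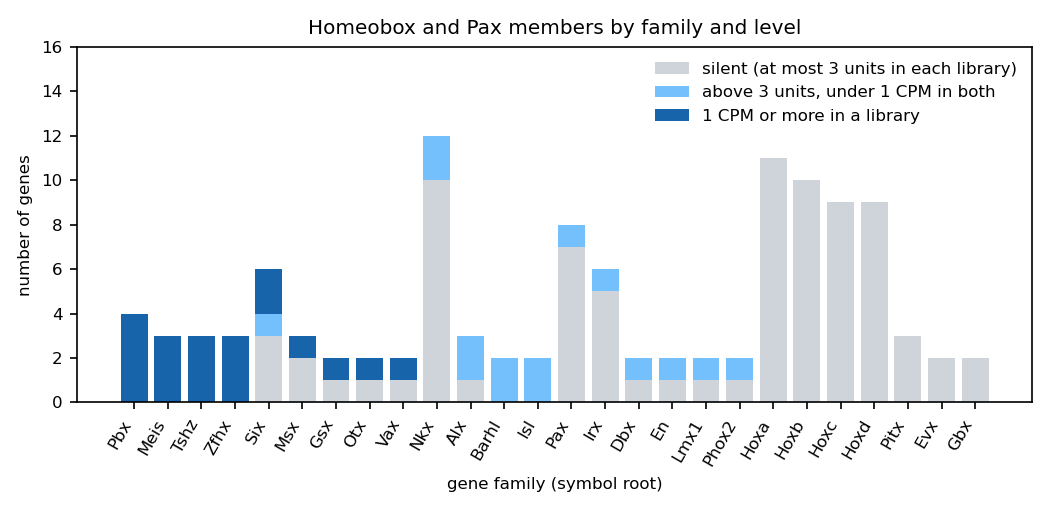
Number of members (vertical axis) in each of the 26 symbol families (horizontal axis), divided into silent genes (grey), genes above 3 units but under 1 CPM in both libraries (light blue) and genes reaching 1 CPM in either library (dark blue). All 13 Pbx, Meis, Tshz and Zfhx genes are at 1 CPM or more, and all 39 Hox genes are silent.

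The division followed some families as a whole and ran through others. All 39 Hox genes were silent, with 35 at 0 reads in both libraries and at most 1 read in a library for the others. The 11 Hoxa and 9 Hoxd genes had no read in either library. Among 10 Hoxb genes the only read was 1 neuron read of Hoxb1, a hindbrain gene, and among 9 Hoxc genes Hoxc13 had 1 read in each library and Hoxc4 and Hoxc5 had 1 NPC read each. Evx1 and Evx2, which adjoin the HoxA and HoxD clusters, were at 0, as were the 3 Pitx genes, known from pituitary, limb and dopamine neuron development. Of 8 Pax genes 7 were silent. Pax2 of the midbrain-hindbrain border and kidney had 1 read in each library, and Pax1, Pax3, Pax5, Pax7, Pax8 and Pax9 had none. The exception, Pax4, a factor of pancreatic islet development, had 8 NPC and 5 neuron reads. Of 12 Nkx genes 10 were silent and 0 reached 1 CPM. Nkx2-2, a ventral spinal cord factor, had 3 and 1 reads in NPCs and neurons, and Nkx6-3 1 and 0, while 7, with the motor neuron factor Nkx6-1 and the heart factor Nkx2-5 among them, had none. Of 6 Irx genes 5 were silent, with 3 NPC reads of Irx1 as the most. En1, Gbx2 and Lmx1b, known from midbrain and hindbrain, had no read in either library and Gbx1 2 and 1, while their relatives En2 (1 and 9 reads) and Lmx1a (3 and 6) lay above the limit. At the other end stood the 7 Meis and Pbx genes and the 6 Zfhx and Tshz genes, which encode zinc finger proteins with homeodomains, and all 13 exceeded 1 CPM. Without the Hox genes 42 of 76 members (55.3%) were silent, so the share stayed above the 27.9% of all genes.

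Within several small families 1 member was expressed and its relative was silent. Otx1, a factor of the forebrain and of deep-layer cortical progenitors and neurons, had 1799 and 728 reads in NPCs and neurons, while Otx2, its relative in midbrain and choroid plexus, had 0 and 2. Gsx2 had 39 and 8 reads and Gsx1, which acts beside it in the ganglionic eminences, 1 and 0. Vax1 had 41 and 21 reads and Vax2, an eye patterning gene, none in either library. Msx3 had 10 and 30 reads, against 1 and 0 each for Msx1 and Msx2. Among the relatives of Six4, which act in eye, muscle and sensory organ development, Six5 had 259 and 59 reads and Six4 139 and 71, while Six6 had 0 and 2 and Six2 none. Six3 lay between, with 25 and 10 reads. The silent members of these families thus had at most 2 reads in a library, while Otx1, Six5 and Six4 had 59 or more in each.

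The silent Hox clusters mostly lay between genes that were read. In gene order, the nearest listed genes beside HoxA were Skap2 (1.78 CPM in NPCs and 4.17 in neurons) and Hibadh (19.8 and 16.9), a dehydrogenase of valine breakdown. Beside HoxC they were Calcoco1 (156.6 and 158.3) and Smug1, a DNA repair glycosylase (31.1 and 32.4), and beside HoxD Lnp (91.6 and 98.3) and Mtx2, a mitochondrial import protein (33.9 and 38.8). HoxB differed. Its nearest listed neighbours, Ttll6 with 0 reads in both libraries and Skap1 with 5 and 11, were themselves under 1 CPM. Thus 6 of the 8 nearest neighbours of the 4 clusters exceeded 1 CPM, against 0 of the 39 Hox genes between them. In so small a set the count of neighbours is near the 62.3% of all listed genes at that level. The smaller clusters gave the same contrast in part. Irx3, Irx5 and Irx6 lie beside Fto, at 170.2 and 190.5 CPM, while these Irx genes had at most 4 reads. Six4, which shares a cluster with the silent Six6, reached 5.15 CPM in NPCs and 3.12 in neurons. In all, 11 of 16 nearest neighbours of 8 clusters exceeded 1 CPM, again near the 62.3% of all listed genes that did. The neighbours were thus read about as often as listed genes at large. The order is that of RefSeq on GRCm38.p6. Markers of hindbrain and spinal cord, where Hox genes are in use, summed to 35.1 CPM in NPCs and 26.2 in neurons, and 4 of the 11 (Ptf1a, Mnx1, Lbx1 and Chat) had no read in either library.

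**Figure D2:**
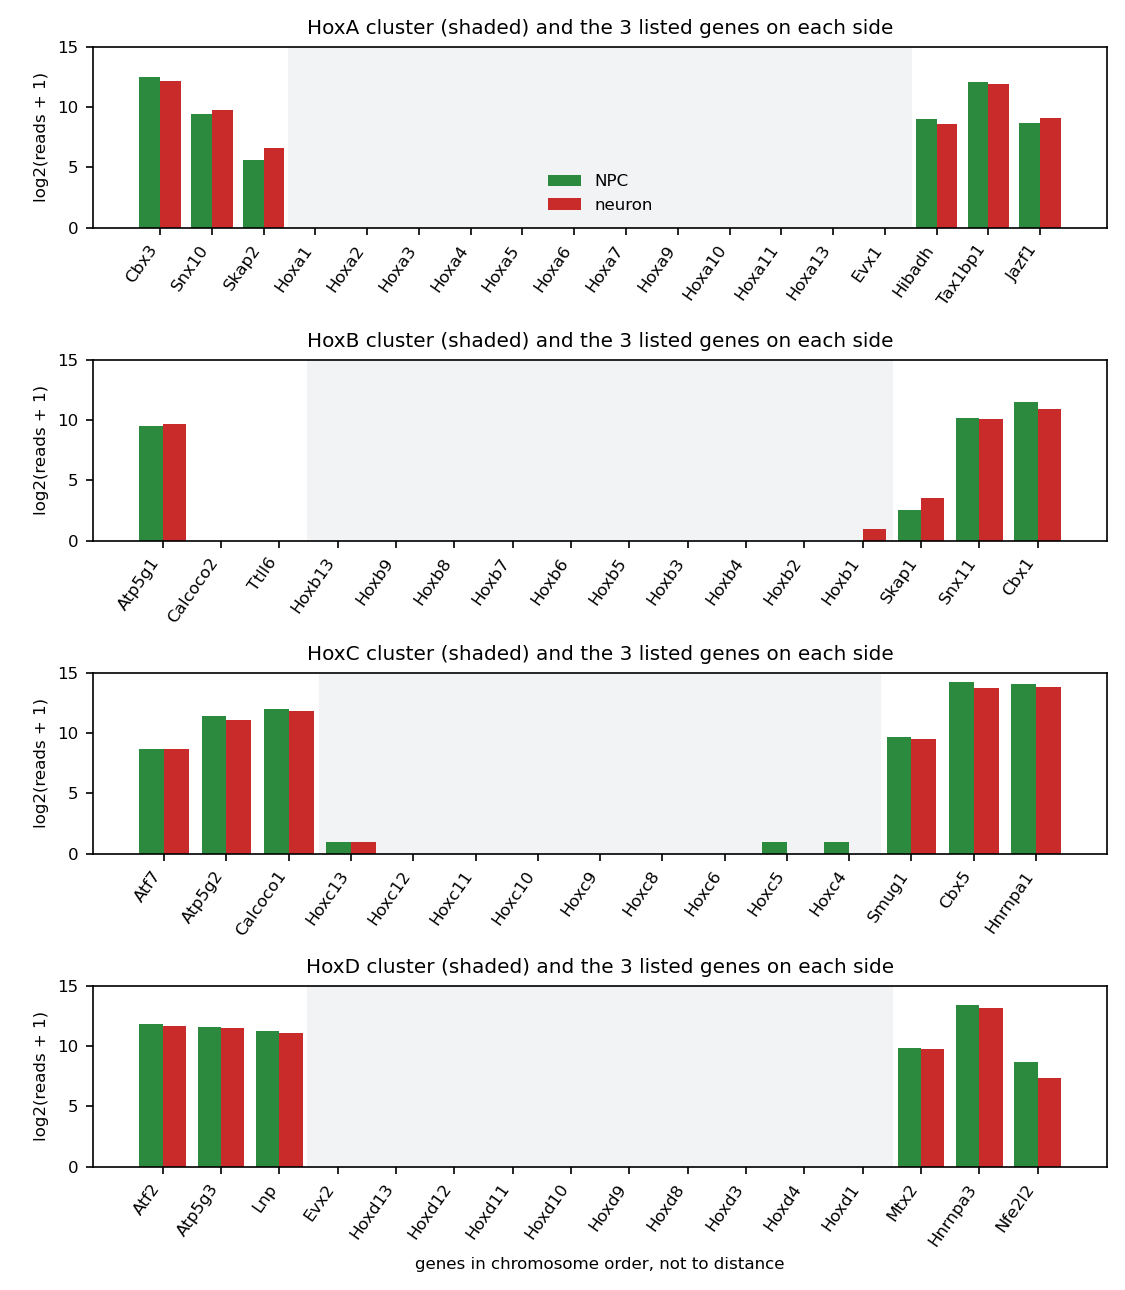
Reads per gene, as log2(reads + 1), in the NPC (green) and neuron (red) library for the genes of each Hox cluster (shaded) and the 3 nearest listed genes on either side, in chromosome order and not to distance. Within the shading no bar exceeds 1 read, while all flanking genes but Calcoco2 and Ttll6 have reads.

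The median CpG content of silent members' promoters was near that of expressed members and above that of other silent genes. The measure is the number of CpG in the window over the number expected from its C and G content, from 300-base RefSeq windows that were found for 50 of the 81 silent and 25 of the 34 expressed members. The silent members had a median of 0.70 (quartiles 0.54 and 0.85) and the expressed members of 0.69 (0.57 and 0.80). Other silent genes of the tables had a lower median, 0.17 over 3997 windows (quartiles 0.085 and 0.31), and other expressed genes had a median of 0.74 over 10409 windows. A value of 0.6 or more was found for 30 of 50 silent members (60%) and 17 of 25 expressed ones (68%). The same held for 6.88% of the other silent genes and 67.8% of the other expressed genes. In counts, the median window of a silent member held 18 CpG, that of an expressed member 17 and that of another silent gene 2. Members of 1 cluster are related and are not replicates, so no test was made.

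Silent members varied among themselves. The 22 silent Hox windows had a median of 0.59, against 0.74 for the 28 other silent members. The range among silent members ran from 0.26 at Hoxd11 to 1.18 at Nkx6-1, and Hoxa13 had the most CpG, 45 in 300 bases. The lowest expressed window was that of Tshz2, at 0.10 with 2 CpG. The letters TATAAA stood on the strand of the gene in 3 of 50 silent windows (6%) and 3 of 25 expressed windows (12%), against 19.8% of the other silent genes, 4.43% of the other expressed genes and 8.88% of all 27018 genes with a window. On either strand they stood in 10%, 16%, 28.0%, 7.21% and 14.2%, in the same order. Of the 40 members without a window nothing is said here.

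**Figure D3:**
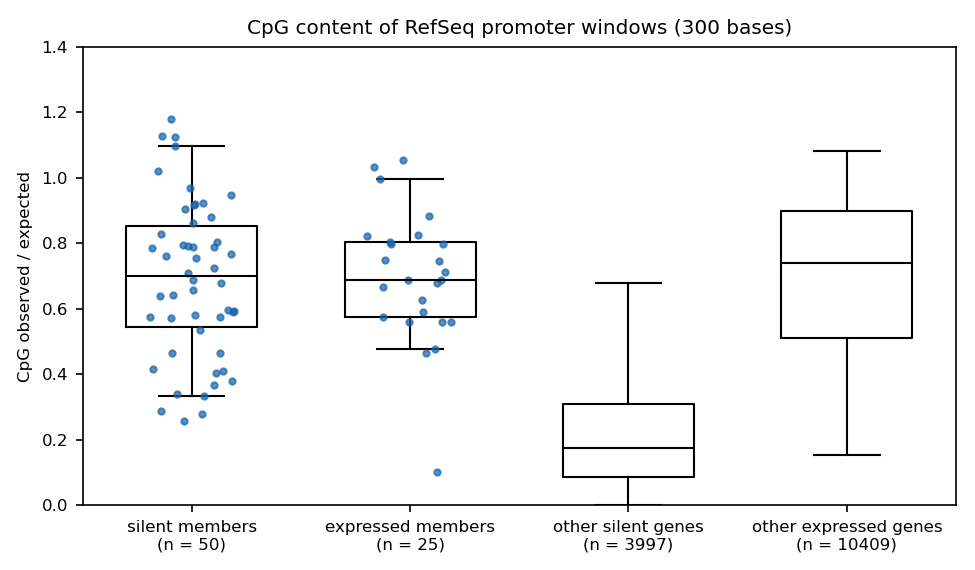
Ratio of observed to expected CpG (vertical axis) in 300-base RefSeq promoter windows for silent members, expressed members and the other silent and expressed genes of the tables. Boxes show quartiles and median, whiskers the 5th and 95th percentiles and points single members. The silent members, with a median of 0.70, lie at the height of expressed genes, while other silent genes have a median of 0.17.

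Silent members had a lower median exon length than expressed members. The measure sums the exons of all transcripts of a gene in GENCODE M21, with shared bases counted once. The median was 2.66 kb for silent members, 3.59 kb for expressed members and 5.85 kb for those at 1 CPM or more. For expressed members under 1 CPM it was 2.76 kb, near that of silent members. The silent Hox genes had a median of 2.47 kb, the other silent members 3.23 kb and all listed genes with a length 3.72 kb. Longer transcripts give more reads at the same abundance, and the part of length in the division was not tested. Among the silent members the longest had 8.85 kb (Pax5).

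The reads of the whole group came from few genes. The 7 Meis and Pbx genes took 69.2% of the member reads in NPCs and 72.0% in neurons, and the 13 Meis, Pbx, Zfhx and Tshz genes took 94.7% and 97.2%. Per kb of exon, Meis2 reached 43.2 CPM per kb in NPCs and 34.2 in neurons. Lower levels were those of Pbx2 (17.7 and 15.4) and Meis3 (17.2 and 21.2), and then Tshz1 (14.7 and 7.44), Otx1 (12.3 and 5.89), Zfhx2 (10.8 and 12.6) and Tshz3 (5.76 and 12.4). Zfhx3, with 20.98 kb of exons the longest member, had 0.41 and 0.22 CPM per kb.

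Of the 19 members reaching 1 CPM, 15 differed by less than 2-fold between the libraries. Each member reaching 1 CPM was compared after adding 1 CPM to its levels. Of these 19, 3 stood 2-fold or more above neurons in NPCs, as did 6.73% of 12693 genes, and 1 stood as far above NPCs in neurons, as did 3.85%. In a set of this size a single gene makes 5.26%. On the log2 scale, neuron over NPC, the median of the 19 was −0.39, against −0.0049 for all genes at that level, with a range from −1.56 to 1.09. Of the 19, 12 were higher in NPCs and 7 in neurons. The counting interval lay wholly on the NPC side for 11 and on the neuron side for 6, and such intervals were found for 34.6% and 33.6% of all genes at that level. With 5 CPM added, 0 members reached 2-fold toward NPCs, and with scaling by total reads 4 did. Single ratios below are those of CPM without the added value.

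**Figure D4:**
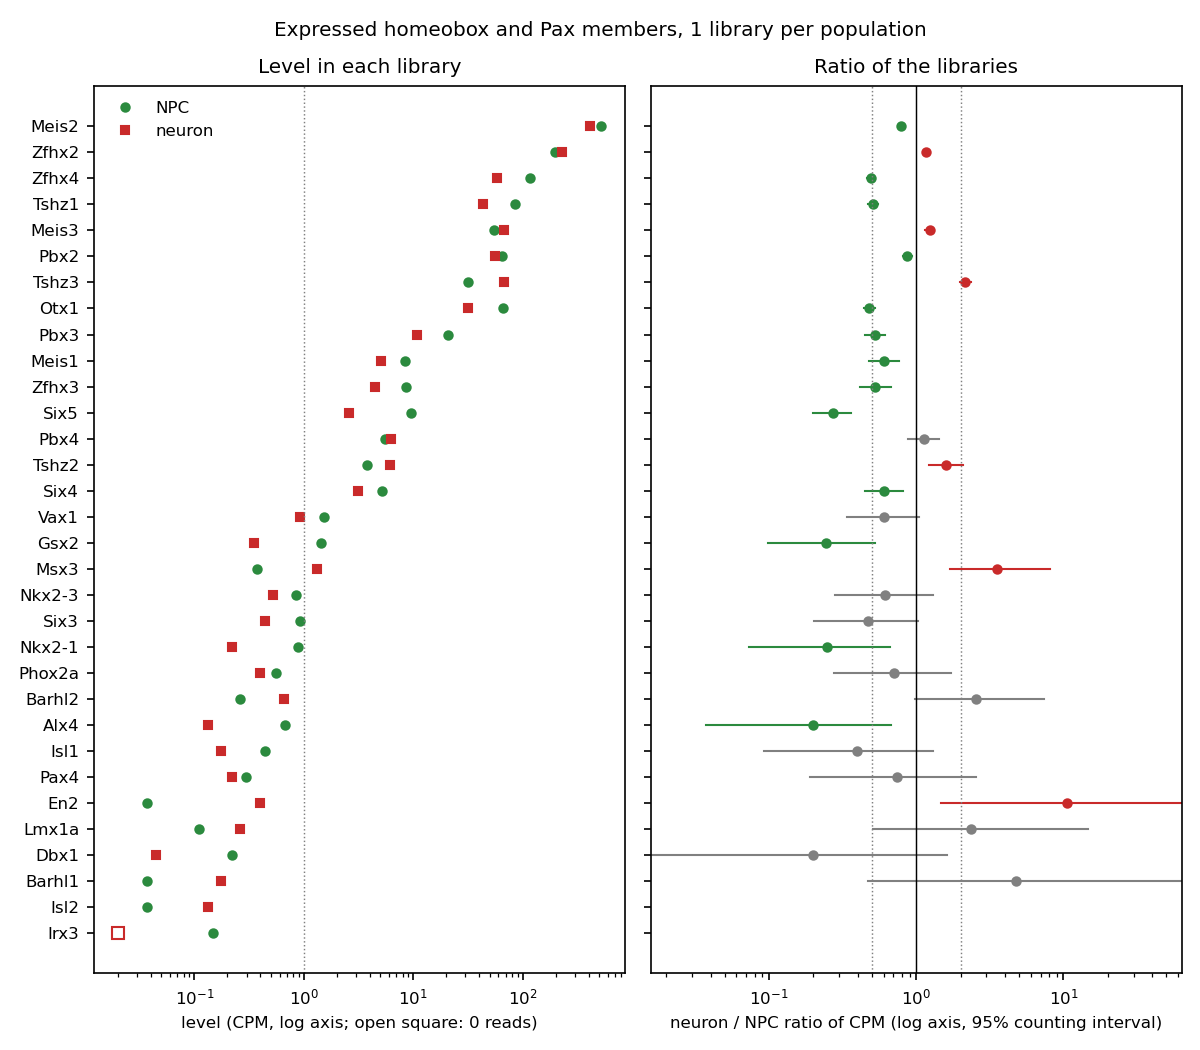
Left, level of 32 of the 34 expressed members in the NPC (green circles) and neuron (red squares) library in CPM on a log axis, with open squares for 0 reads and a dotted line at 1 CPM. Right, ratio of neuron to NPC with its 95% counting interval, coloured where the interval lies on 1 side of 1, with dotted lines at 2-fold and no ratio where a library had 0 reads or both had at most 3. Intervals of En2, Barhl1 and Dbx1 run beyond the axis. With 1 CPM added, of the members reaching 1 CPM, Six5, Otx1 and Zfhx4 are at least 2-fold lower in neurons and Tshz3 is higher. The plotted ratios have no added value, and on that scale less abundant members such as Gsx2, Nkx2-1, Alx4, Msx3 and En2 also lie beyond the 2-fold lines.

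None of the 7 Meis and Pbx partner genes reached 2-fold with 1 CPM added. Of all genes reaching 1 CPM 10.6% did so in either direction, so in a set of 7 this does not set these genes apart. Meis2, which marks progenitors and neurons of the lateral ganglionic eminence and is also made in cortex, was at 520.4 and 412 CPM, a NPC excess of 1.26-fold (interval 1.23 to 1.30). Meis3 was at 54.6 and 67.2 CPM (neuron excess of 1.23-fold, interval 1.15 to 1.32). Pbx2 was at 64.2 and 56.0 CPM (NPC excess of 1.15-fold, interval 1.07 to 1.24), and Pbx4 at 5.56 and 6.23, with an interval of the ratio of neuron to NPC from 0.885 to 1.42. Larger differences in this class were those of the less abundant Pbx3, at 20.6 and 10.8 CPM (NPC excess of 1.9-fold, interval 1.63 to 2.22), and Meis1, at 8.34 and 5.05 CPM (1.65-fold, interval 1.31 to 2.09). Meis3 thus lay on the neuron side and Meis1 and Meis2 on the NPC side.

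Zinc finger homeodomain genes went both ways. Zfhx4 was at 117 CPM in NPCs against 57.7 in neurons (NPC excess of 2.02-fold, interval 1.9 to 2.16), and its relative Zfhx3, also known as Atbf1, at 8.56 and 4.52 (1.89-fold, interval 1.5 to 2.41). Zfhx2 was at 196 and 228 CPM, a neuron excess of 1.17-fold (interval 1.12 to 1.21). In GENCODE its exons share 3255 bases with Zfhx2os on the opposite strand. Among the teashirt genes, Tshz3 was at 31.4 and 67.9 CPM (neuron excess of 2.16-fold, interval 1.99 to 2.35). It is known from cortical projection neurons. Tshz1 lay on the NPC side, at 85.7 and 43.5 CPM (NPC excess of 1.97-fold, interval 1.83 to 2.12). Tshz2 was at 3.82 and 6.10 CPM (neuron excess of 1.60-fold, interval 1.23 to 2.08), and 5076 of its exonic bases are shared with a transcript of the opposite strand. No source used here gives a strand setting, so reads of such overlapping genes could not be told apart. Exonic overlap with another gene was found for 7 of the 34 expressed members, which are Irx3, Meis1, Pbx2, Phox2a, Six3, Tshz2 and Zfhx2.

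Otx1, Six5 and Six4 were higher in NPCs. Otx1 was at 66.7 CPM in NPCs against 32.0 in neurons (2.09-fold, interval 1.91 to 2.28). Six5, which lies beside the myotonic dystrophy kinase gene, had the largest difference among members at 1 CPM or more on the scale with 1 CPM added, at 9.60 and 2.59 CPM (3.71-fold, interval 2.79 to 5.01). Six4 was at 5.15 and 3.12 CPM (1.65-fold, interval 1.23 to 2.23). In the same NPC library the summed markers of pericytes and mural cells were at 316 CPM against 27.6 in neurons, with 10 of 12 markers higher in NPCs. None of the 12 was at 0. The most abundant were Notch3 (85.8 and 13.5 CPM), which progenitors also make, and Abcc9 (61.5 and 2.81), and the defining gene Pdgfrb was at 54.0 and 2.33. Oligodendrocyte lineage markers (10 of 10 higher in NPCs) summed to 122 CPM against 37.0, and endothelial markers (11 of 12) to 49.3 against 25.4, and no gene of either list was at 0 in both libraries. The part of these cells in the differences of Otx1, Six5, Six4 and the Zfhx genes was not tested.

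Among expressed members known from the ventral telencephalon and nearby forebrain, Gsx2, Nkx2-1, Vax1, Isl1, Six3 and Dbx1 had more reads in NPCs. Forebrain members did not share 1 direction, since Barhl2 of the diencephalon (7 and 15 reads) and Lmx1a of the cortical hem (3 and 6) had more in neurons. Only for Gsx2 and Nkx2-1 did the interval exclude equality. Of their silent relatives, Gsx1 had 1 and 0 reads in NPCs and neurons, Six6 0 and 2, and Vax2 none. Of all 12693 genes reaching 1 CPM, 6430 were higher in NPCs. Nkx2-1, Isl1, Six3 and Dbx1 lay under 1 CPM in both libraries and are not among these genes. The share for genes at their level was not computed. Gsx2, a progenitor factor of the lateral ganglionic eminence, was at 1.45 CPM in NPCs against 0.352 in neurons (4.12-fold, interval 1.9 to 10.2). Nkx2-1, which specifies the medial ganglionic eminence, was at 0.890 and 0.220 CPM (4.05-fold, interval 1.52 to 13.6). Vax1, a factor of the ventral forebrain and optic stalk, was at 1.52 and 0.922 CPM, and its ratio of neuron to NPC had an interval from 0.340 to 1.05. Isl1 of striatal and motor neurons had 12 and 4 reads, Six3 of the anterior forebrain 25 and 10, and Dbx1, which marks the ventral pallium and septum, 6 and 1, and all 3 intervals included equality. The 20 markers of ganglionic eminence and interneurons summed to 528.2 CPM in NPCs and 354.8 in neurons, with 19 of 20 higher in NPCs. Their most abundant genes were Dlx1 (105.3 and 70.4 CPM) and Lhx6 (68.0 and 55.5). Whether these cells carry the reads of the ventral members was not tested.

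A few low members were higher in neurons. Msx3, a dorsal neural tube gene, had 10 NPC and 30 neuron reads, or 0.371 and 1.32 CPM (neuron excess of 3.55-fold, interval 1.69 to 8.14). En2 of midbrain and cerebellum had 1 and 9 reads, and its ratio of 10.7 has an interval from 1.48 to 467. Barhl2, known from diencephalon and retina, had 7 and 15 reads, Lmx1a of the cortical hem and roof plate 3 and 6, and Barhl1 1 and 4, with intervals that include equality. Diencephalon and thalamus markers summed to 85.7 CPM in NPCs and 74.2 in neurons, with Foxb1 and Otp at 0 among the 10. Rgs16 alone was at 45.7 and 35.6 CPM, and 5 markers were higher in NPCs and 3 in neurons. Markers of Cajal-Retzius cells, early neurons of the cortical surface of which many come from the hem, were also higher in neurons. The 10 found summed to 151 CPM in NPCs and 522 in neurons, with 9 of 10 higher in neurons and Reln alone at 95.8 and 434. Markers of microglia and macrophages, all 13 found being higher in neurons, summed to 34.3 CPM in NPCs and 149 in neurons. The part of these cells in the reads of these members was not tested. The 9 choroid plexus markers summed to 2.19 and 1.45 CPM, and Ttr, the most abundant transcript of that tissue, was at 0.556 and 0.

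The remaining low members lay on the NPC side or near equality. Alx4, known from craniofacial mesenchyme, had 18 and 3 reads (NPC excess of 5.07-fold, interval 1.48 to 26.9), and the silent Alx1 3 and 0. Markers of meninges and fibroblasts summed to 40.8 CPM in NPCs and 5.23 in neurons, 10 of 12 higher in NPCs, with Col3a1 at 16.9 and 0.790 CPM, and their part was not tested. Irx3 had 4 and 0 reads, or 1.12-fold toward NPCs with the neuron count set at the 3-read floor. That value leaves out the counting error of the 4 reads, so equality is not excluded. Nkx2-3, Phox2a and Pax4 had 23 and 12, 15 and 9, and 8 and 5 reads, with intervals that include equality. Isl2, a motor neuron gene with 1 and 3 reads, was under the floor for a ratio. Of the 15 expressed members under 1 CPM, the interval lay on the NPC side for 2 and on the neuron side for 1. The share of all listed genes at this level with such intervals was not computed, so these counts have nothing to be set against.

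Homeobox genes outside the chosen families were set beside them from a separate list. Of its 88 genes in the tables, 36 (40.9%) had at most 3 units in each library, against 70.4% of the members, and 41 (46.6%) reached 1 CPM. After adding 1 CPM, 7 of the 41 lay 2-fold or more toward NPCs and 3 toward neurons, and their median log2 ratio was −0.44, near the −0.39 of the members. Higher in neurons were the Cajal-Retzius genes Lhx5 (0.259 and 3.07 CPM) and Lhx1 (0.148 and 1.76 CPM). Higher in NPCs were the mesenchymal gene Prrx1 (12.98 and 3.20 CPM), Zhx2 (80.3 and 32.2), Hopx (5.49 and 1.67) and Zeb1 (133 and 58.6). The most abundant were Zeb2 (395 and 666 CPM), Adnp (548 and 508), Pou3f3 (543 and 499) and Pou3f2 (438 and 361). This list was drawn up with results of these data known, and the difference in shares was not tested.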

How the data were processed

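RNA sequencing values of 1 NPC and 1 neuron library were used. The tools listed in the submitters' processing notes, with no role or order, are edgeR, SAMtools 0.1.18, TopHat 1.2.0 and CASAVA 1.9, and the build is mm9. The annotation, the strand setting and the treatment of reads that align to several places: not given in the sources used here. The deposited values are a signal that is not whole counts. How the authors scaled it is not given in the sources used here, and the values themselves look like counts multiplied by 1 factor per library. Divided by 0.952727 (NPC) or 1.12797 (neuron) units per read, they gave whole reads within 0.05 for 100% and 99.9656% of genes. Values under 0.01 were taken as 0. Of 432 genes of ribosomes, proteasome, respiration, translation and splicing, 3 were at 0 in both libraries, so that 0 was read as no read.

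Values were divided by the mean library sum (25698104) and multiplied by 1000000 to give CPM, which keeps the deposited scaling, on which every ratio depends. Genes reaching 1 CPM in either library were compared by log2 with 1 CPM added and called from 2-fold. This understates differences of low genes. A count test on the recovered reads could not be made with 1 library per group and no residual degrees of freedom. TMM and upper quartile factors came from edgeR 4.0.16 in R 4.3.3, the rest from Python 3.11.15 with scipy 1.17.1. Calculations were tested on simulated data. Promoters came from RefSeq (GRCm38.p6, the first listed window where a gene has several, as for 6 members) and exon lengths from GENCODE M21, both matched by symbol. Protein sequences were not used here. Members and lists were chosen with earlier results of these data known. By the rule for names, members at 1 CPM or more could be named, with the members around the limit, the silent members with most reads, the other homeobox genes with the largest ratios and levels, and the most abundant markers of a list. Other markers and members named in the text, such as Pdgfrb and Ttr, were picked after their values were seen. Some genes are not reported here.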

Additional observations from a re-analysis of the deposited data

How the results depend on the processing

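The number of silent members was 61 with a limit of 0 units, 88 with 10 units and 96 with 1 CPM, against 81. Of the members, 3 lay 2-fold or more toward NPCs, and 0 with 5 CPM added in place of 1, while 1 lay toward neurons, and 2 with 0.1 CPM added. The median log2 ratio of the members, −0.39, was −0.27 with 5 CPM added and with a 10 CPM minimum, −0.66 with 0.1 CPM added and 0 with no minimum. For the other homeobox genes 5 CPM added gave 3 and 1 genes in place of 7 and 3, a 10 CPM minimum gave 4 and 1 with a median of −0.29, and no minimum a median of −0.026. The median of all genes was 0.0035 with a 10 CPM minimum in place of −0.0049, and their counts of 854 and 489 were 399 and 238 with 5 CPM added, and 548 in NPCs with a 10 CPM minimum. Fewer genes enter with a higher minimum; for the other changes the added value acts most on low genes by construction. With scaling by total reads 4 members lay 2-fold or more toward NPCs, and the ratios of neuron to NPC of Meis2 and Zfhx2 were 0.756 and 1.11. Under the 3 other scalings none of the 19 members at 1 CPM or more changed direction. The median CpG ratio of the silent members ran from 0.69 with a limit of 10 units to 0.76 with the richest window of each gene, an alternative added after seeing the data. With 1 library per group no replicate could be left out. No paired analysis was possible because each group has 1 library. Depth limits the members under 1 CPM, whose intervals mostly include equality.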
